A study of Homo sapiens with 9 samples.

Results

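NEAT1, the long non-coding RNA that builds paraspeckles, was followed together with the mRNAs of 7 paraspeckle proteins (NONO, SFPQ, PSPC1, RBM14, TARDBP, EWSR1 and TAF15) in nuclear and cytoplasmic RNA of human embryonic kidney cells. The members were chosen by name, as all transcript entries of these 8 genes, and make up 87 of the 215170 entries and 8 of the 56349 genes in the estimates. The cells, HEK293 in the sample labels with a T added to the name in the methods, received control siRNA or siRNAs against both WTAP and KIAA1429 (gene symbol VIRMA, also called Virilizer), subunits of the complex that writes N6-methyladenosine (m6A) on mRNA. RNA was available from 3 control nuclear, 3 RNAi nuclear, 2 RNAi cytoplasmic and 1 control cytoplasmic sample, so that the control cytoplasm has no replicate. The labels do not say whether replicates came from separate cultures, and p-values then measure only the spread between these samples.

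Paraspeckles are nuclear bodies built on NEAT1. The gene makes a short polyadenylated transcript and a long transcript from the same start, and the long one is the scaffold of the body. Its end is not a conventional poly(A) tail but an A-rich stretch that pairs with U-rich stretches upstream of it in a triple helix. NONO, SFPQ and PSPC1 are the related DBHS proteins that coat the scaffold, RBM14 bridges assembled particles, and TARDBP (TDP-43), EWSR1 and TAF15 are RNA-binding proteins also found in the body. The nuclear retention of NEAT1 makes it a useful RNA to set beside mRNAs when nuclear and cytoplasmic fractions are compared.

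The NEAT1 gene lies on the plus strand at chr11:65190245-65213011 of GRCh37 (the same build as hg19). Of its 3 entries, NEAT1-202 is the long form, a single exon of 22743 nt, and NEAT1-201 is the main short form, listed with 1745 nt in the deposited estimates and 3441 nt in the current model. NEAT1-203 is a second short entry that did not pass the filter on low counts. The ends of both forms are shown because they are what sets them apart. The stretch around the end of the current short model, chr11:65193879-65194028, holds the polyadenylation motif AATAAA (in capitals). This motif begins 46 bases past that end, outside the model, and its use by the short form was not tested. The last bases of the long form, chr11:65212912-65213011, hold the A-rich stretch (in capitals).
NEAT1-201: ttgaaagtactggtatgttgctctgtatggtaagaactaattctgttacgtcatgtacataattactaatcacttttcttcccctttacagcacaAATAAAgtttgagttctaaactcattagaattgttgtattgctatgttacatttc
NEAT1-202: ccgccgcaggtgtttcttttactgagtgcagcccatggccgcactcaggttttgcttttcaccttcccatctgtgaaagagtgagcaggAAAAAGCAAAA
Both sequences are written 5′ to 3′ on the strand of the gene. The exons of the shorter entry used in the estimates were not analysed here. Reads from the first part of the gene that no short entry covers can be assigned only to the long entry, so that values of the 2 entries are not exact levels of the 2 forms. The libraries were made with a kit that selects polyadenylated RNA, so the level of the long form is the level of what that kit captured.

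The sequence GGACT, the commonest form of the m6A consensus, was counted on the transcript strand only. NEAT1-202 holds it 19 times, or 0.835 times per kb, with 2 copies in the 3660 nt it shares with the span of the short form and 17 in the remaining 19083 nt. In the most abundant entry of each of the 16181 genes tested, the median was 0.942 per kb, the quartiles were 0.379 and 1.531, and 78.7% of the entries held at least 1 copy. The density in NEAT1-202 lay between these quartiles. By TPM the most abundant NEAT1 entry was NEAT1-201 (60.7% of the gene's TPM), so NEAT1-202 was not chosen by the rule used for the other genes. These counts describe letters and not methylation, which was not measured in these files.

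Totals ranged from 11627403 to 19036141 estimated counts per sample, and the control cytoplasmic sample was the deepest. WTAP stood at 9.23, 12.6 and 9.10 TPM (abundance divided by transcript length and scaled to a fixed total) in the control nuclei and at 4.32, 6.70 and 6.08 TPM in the RNAi nuclei. KIAA1429 stood at 3.43, 6.04 and 7.02 TPM in the control nuclei. It was at 3.80, 2.43 and 1.80 TPM in the RNAi nuclei, so that by TPM the RNAi nuclear sample 1 overlapped the controls. By estimated counts, not scaled for depth, its groups did not overlap (198.2, 193.0 and 224.5 in control and 132.1, 59.6 and 96.1 in RNAi nuclei). Both mRNAs fell in the nucleus by the quasi-likelihood test of edgeR, with p adjusted after Benjamini and Hochberg (WTAP log2 change -0.83, adjusted p = 0.0169, and KIAA1429 -1.08, adjusted p = 0.0314). In the cytoplasm the falls against the single control sample were larger (WTAP log2 change -1.72 and KIAA1429 -2.07). Of 7 HEK293 markers, 6 could be matched and all of these were detected. MALAT1, a nuclear RNA, was at 11.2 to 20.5 TPM in the control nuclei and 1.51 TPM in the control cytoplasm, whereas 7SK RNA (RN7SK) was not higher in the control nuclei (34.9 to 51.9 TPM) than in the control cytoplasm (82.2 TPM). The 8 mitochondrially encoded mRNAs on the marker list, which belong outside the nucleus, summed to 183269 to 273196 TPM in the control nuclei and to 119439 TPM in the control cytoplasm, so the nuclear fractions contained them too. What this carry-over contributes to the nuclear values of the members was not tested.

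NEAT1 was the most nuclear of the 8 members. Its summed level was 11.4, 21.1 and 14.2 TPM in the control nuclei, 16.6, 17.7 and 15.4 TPM in the RNAi nuclei, 2.98 TPM in the control cytoplasm, and 1.22 and 1.58 TPM in the RNAi cytoplasm. Every nuclear sample lay above every cytoplasmic one. On the scale of normalised counts, NEAT1 was 10.3-fold higher in control nuclei than in control cytoplasm (log2 difference 3.36 ± 0.18 SE, adjusted p = 7.14e-06) and 18.5-fold higher in RNAi nuclei than in RNAi cytoplasm (4.21 ± 0.14 SE, adjusted p = 2.17e-07). A gene was called when the adjusted p was under 0.1 and the log2 difference over 0.5, and 50.8% of all genes tested were called in the first of these comparisons (28% higher in the nucleus and 22.7% lower) and 57.8% in the second (32.9% higher and 24.9% lower). In bulk fractions, a different number of nuclei or cells recovered and a different amount of RNA in each cannot be told apart, and the values are shares of each library.

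The long form had a higher TPM in each RNAi nuclear sample than in any control nuclear sample. It stood at 4.21, 5.82 and 5.15 TPM in the control nuclei and at 6.76, 9.24 and 7.85 TPM in the RNAi nuclei. In 11.3% of all transcript entries tested, the RNAi nuclei likewise all lay above the control nuclei. The short entries did not show this order, with 7.23, 15.3 and 9.03 TPM in the control nuclei against 9.88, 8.44 and 7.57 TPM in the RNAi nuclei. In the cytoplasm the long form was at 0.36 TPM in the control sample and at 0.30 and 0.25 TPM in the RNAi samples, from 144 estimated counts in the former and 106 and 73.4 in the latter.

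**Figure D1:**
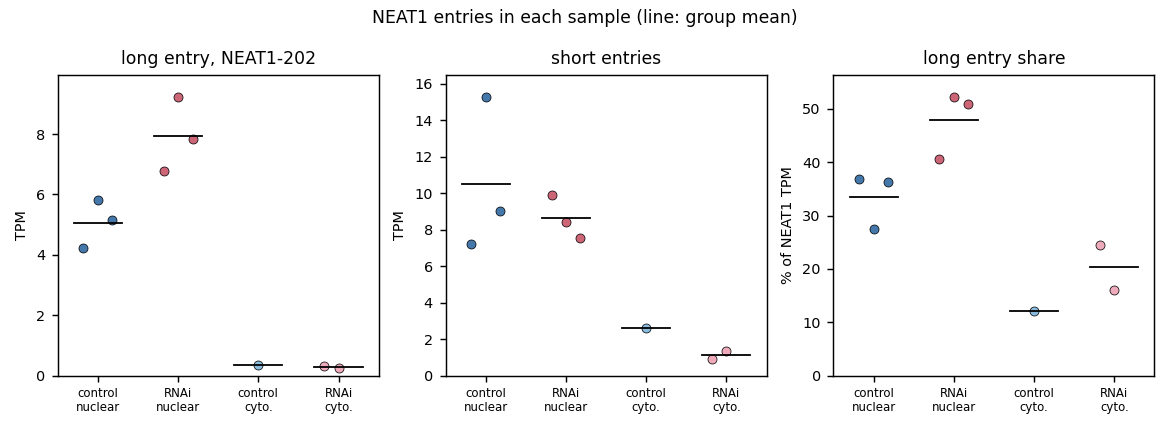
TPM of the long NEAT1 entry (left), summed TPM of the short entries (middle) and the share of NEAT1 TPM on the long entry in percent (right), with 1 point per sample and a line at the group mean. The long entry in the 3 RNAi nuclei (6.76 to 9.24 TPM) lies above the 3 control nuclei (4.21 to 5.82 TPM), while the short entries overlap.

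The long form made up 36.8%, 27.6% and 36.3% of NEAT1 TPM in the control nuclei and 40.6%, 52.3% and 50.9% in the RNAi nuclei. The means of 33.6% ± 5.2 and 47.9% ± 6.4 (SD, n = 3 each) differed by 14.4 percentage points, with p = 0.1 by an exact two-sided permutation test, which is the smallest p that 3 against 3 samples allow. In the cytoplasm the share was 12.2% in the control and 24.5% and 16.0% in the RNAi samples. By counts rather than TPM, the long entry carried 85.0% to 89.7% of NEAT1 counts in the control nuclei and 90.9% to 94.2% in the RNAi nuclei. The gene-level count of NEAT1 is therefore largely the count of the long entry.

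At the gene level NEAT1 was at 121, 144 and 137 CPM (counts scaled to library size with TMM factors) in the control nuclei and at 180, 211 and 187 CPM in the RNAi nuclei. The lowest RNAi value was above the highest control value on this scale, an order that was not seen in the summed TPM of NEAT1. By TPM 14% of all genes showed this order, and the share by CPM was not computed. The log2 change was 0.52 ± 0.10 SE (1.44-fold, 95% interval 0.31 to 0.74, adjusted p = 0.0297). NEAT1 was the single member called in the nucleus, 1 of 8, where 4.89% of all genes were called and 2.47% were called higher. The change lay close to the threshold of 0.5 and the call was lost in several settings. It became 0.46 without control nuclear sample 1 (adjusted p = 0.0342) or without RNAi nuclear sample 2 (adjusted p = 0.122), and the adjusted p rose to 0.123 without control nuclear sample 3 and to 0.137 without RNAi nuclear sample 3. Without control nuclear sample 2, the highest control by TPM for every member, it was kept (0.58, adjusted p = 0.0218). It was 0.05 with an offset for average transcript length (adjusted p = 0.918) and 0.13 on log2(TPM + 1) in limma (adjusted p = 0.839), settings that weigh both forms per molecule. The summed TPM of NEAT1, 15.6 ± 5.0 in control and 16.6 ± 1.1 in RNAi nuclei (SD, n = 3 each), differed by less than the spread between the controls.

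Tested entry by entry, the long form changed by 0.58 ± 0.10 SE in the nucleus (log2, adjusted p = 0.168 over 50857 entries in edgeR) and the short entry NEAT1-201 by -0.30 ± 0.28 SE (adjusted p = 0.837). Neither was called, and 0 of the 50857 entries of all genes were (0%). Among the 45 member entries that passed the filter, 3 had an unadjusted p under 0.05 in edgeR's quasi-likelihood test. These were NEAT1-202, the SFPQ entry SFPQ-208 and the NONO entry NONO-215, the last named after its value was seen, all with a positive change. Such values were common over all genes. They were found in 3260 of 26892 coding entries and 396 of 7607 entries annotated with a retained intron. They were also found in 271 of 3402 nonsense-mediated decay entries and 237 of 3566 with no defined coding sequence. Of the nuclear long RNAs on the marker list, KCNQ1OT1 was called higher in the RNAi nuclei (log2 change 0.79, adjusted p = 0.0233), whereas MALAT1 changed by 0.13 (adjusted p = 0.79). The 7 markers summed to 97.1 to 107.8 TPM in the control nuclei and 102.2 to 1153 TPM in the RNAi nuclei. Their sum was 102.4 TPM in the control cytoplasm, so it did not set the control fractions apart, and 77.9 to 84.9 TPM in the RNAi cytoplasm. The highest value came from RNAi nuclear sample 2, in which RN7SK was at 1089 TPM. That sample also had the highest NEAT1 CPM (211) and long form TPM (9.24), and the smallest total of all samples (11627403 counts). Whether these are linked was not tested. The part of any difference in fraction purity in the NEAT1 value was not tested.

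In the cytoplasm NEAT1 was at 13.0 CPM in the control and at 9.97 and 10.9 CPM after RNAi, a log2 difference of -0.32 ± 0.18 SE that was not called (adjusted p = 0.223), although it was with the length offset (-0.84, adjusted p = 0.0884). The ratio of nuclear to cytoplasmic NEAT1 was 1.8-fold higher after RNAi than in controls (log2 change 0.85 ± 0.20 SE, 95% interval 0.40 to 1.29, adjusted p = 0.025). It was the single call among the 8 members, against 18.2% of all genes called and 10.4% called higher. Other nuclear long RNAs on the marker list were called higher in this ratio too, MALAT1 by 1.33 (2.51-fold, adjusted p = 0.0936) and KCNQ1OT1 by 1.58 (2.99-fold, adjusted p = 0.00988), and both were called lower in the cytoplasm after RNAi (-1.20 and -0.79). TUG1 (0.44, adjusted p = 0.235) and SNHG14 (1.06, adjusted p = 0.762) were not called in the ratio. This NEAT1 call was kept when any replicate was left out, with values from 0.77 to 0.95. It was lost with the transcript length offset (0.88, adjusted p = 0.145) and in limma on log2(TPM + 1) (0.86, adjusted p = 0.273), where the direction was the same. The control side of the ratio rests on 1 cytoplasmic sample, in every setting.

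**Figure D2:**
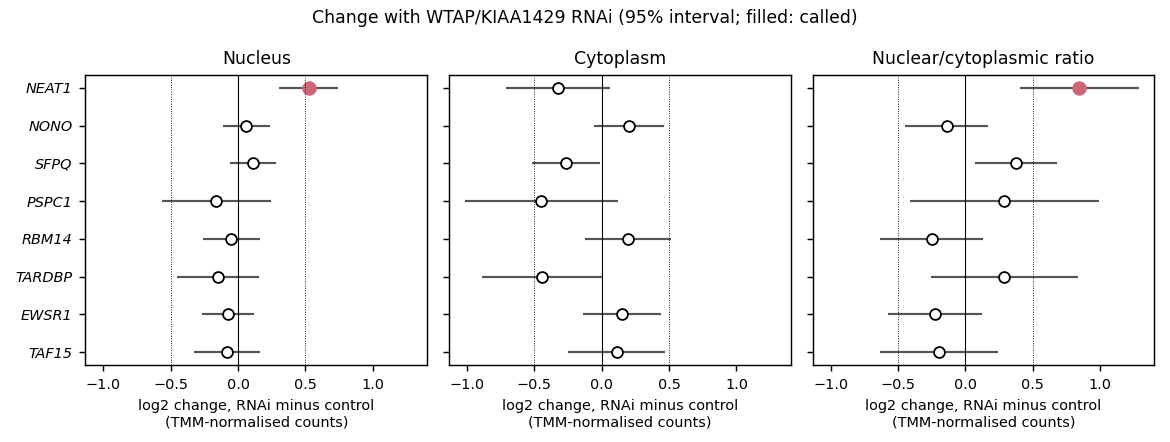
Log2 change with WTAP/KIAA1429 RNAi of the 8 member genes in the nucleus, in the cytoplasm and in the nuclear to cytoplasmic ratio, with 95% intervals from edgeR, a solid line at 0 and dotted lines at -0.5 and 0.5. Filled points mark calls, and NEAT1 is called in the nucleus (0.52) and in the ratio (0.85).

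None of the 7 protein mRNAs was called in the nucleus after RNAi. Their log2 changes ran from -0.16 (PSPC1) to 0.11 (SFPQ), and the adjusted p-values from 0.446 to 0.802. For NONO, SFPQ, RBM14, EWSR1 and TAF15 the 95% intervals stayed within -0.33 and 0.28, so a change as large as the threshold of 0.5 lay outside them, whereas the interval of PSPC1 (-0.57 to 0.24) reached past it. For TARDBP it ran from -0.46 to 0.15. Over the 8 members the median change was -0.06, and over all genes tested it was -0.001.

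Among the DBHS members, NONO was the most abundant at 348, 529 and 387 TPM in the control nuclei and 436, 488 and 511 TPM in the RNAi nuclei. It stood at 555 TPM in the control cytoplasm and at 448 and 410 TPM in the RNAi cytoplasm. Part of this spread lay on NONO-210, an entry of only 397 nt with no defined coding sequence, which ranged from 51.1 TPM (control nuclear 1) to 202 TPM (control cytoplasm). The main coding entry NONO-202 was steadier, with 206 to 267 TPM in the control nuclei, 235 to 278 TPM in the RNAi nuclei, 266 TPM in the control cytoplasm and 296 and 230 TPM in the RNAi cytoplasm. The second coding entry, NONO-201, held 13.6% of the gene's TPM and was called lower in RNAi nuclei than in RNAi cytoplasm (log2 difference -0.52, adjusted p = 0.0848).

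SFPQ, the partner of NONO, was at 71.6, 97.9 and 80.8 TPM in the control nuclei, 88.6, 98.9 and 90.2 TPM in the RNAi nuclei, 98.0 TPM in the control cytoplasm, and 72.6 and 61.4 TPM in the RNAi cytoplasm. The RNAi cytoplasmic samples lay below the control cytoplasm and overlapped the control nuclei. By normalised counts SFPQ was at 363 CPM in the control cytoplasm and at 305 and 299 CPM after RNAi (log2 difference -0.27 ± 0.11 SE, adjusted p = 0.126). Its nuclear to cytoplasmic ratio changed by 0.38 ± 0.14 SE and was not called (adjusted p = 0.103). PSPC1 was the least abundant protein mRNA, with 5.40, 8.84 and 4.12 TPM in the control nuclei, 5.72, 7.18 and 6.23 TPM in the RNAi nuclei, 9.79 TPM in the control cytoplasm, and 7.96 and 6.02 TPM in the RNAi cytoplasm. Its TPM lay on the coding entries PSPC1-201 (42.5%) and PSPC1-202 (26.5%) and on PSPC1-203 (19.9%) and PSPC1-204 (10.6%), annotated as targets of nonsense-mediated decay. Single entries were uneven between samples, as PSPC1-203 was at 4.01 and 0.09 TPM in the 2 RNAi cytoplasmic samples.

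RBM14 was at 121, 169 and 145 TPM in the control nuclei and 121, 164 and 150 TPM in the RNAi nuclei, almost the same range, with 128 TPM in the control cytoplasm and 130 and 114 TPM in the RNAi cytoplasm. One coding entry, RBM14-201, carried 97.0% of its TPM. TARDBP was at 27.6, 58.5 and 36.3 TPM in the control nuclei, 34.2, 39.8 and 38.7 TPM in the RNAi nuclei, 30.8 TPM in the control cytoplasm and 19.4 and 17.8 TPM in the RNAi cytoplasm. The control nuclear sample 2 stood highest for both genes, and it was also the highest control nuclear sample for the other 6 members.

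EWSR1 was at 250, 317 and 275 TPM in the control nuclei, 277, 301 and 283 TPM in the RNAi nuclei, 255 TPM in the control cytoplasm, and 239 and 186 TPM in the RNAi cytoplasm. The coding entries EWSR1-211 (41.6% of the gene's TPM), EWSR1-209 (16.4%) and EWSR1-207 (15.9%) held most of it, and of these EWSR1-207 alone was called, lower in control nuclei than in control cytoplasm (log2 difference -0.51, adjusted p = 0.0862). TAF15 was at 20.5, 27.6 and 19.9 TPM in the control nuclei, 18.6, 19.5 and 19.8 TPM in the RNAi nuclei, 24.1 TPM in the control cytoplasm, and 18.6 and 20.8 TPM in the RNAi cytoplasm. Its main entries were the coding TAF15-214 (45.0%) and, annotated as targets of nonsense-mediated decay, TAF15-211 (27.6%) and TAF15-207 (15.5%), and none of these was called. The TAF15 values are low, since 13 of its 14 entries have a copy in the annotation of the same length with the same count (within 1%) in every sample, as when reads are divided equally between identical sequences. Its TPM printed here is about what 1 of the 2 copies received, and adding the copies changed no call.

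**Figure D3:**
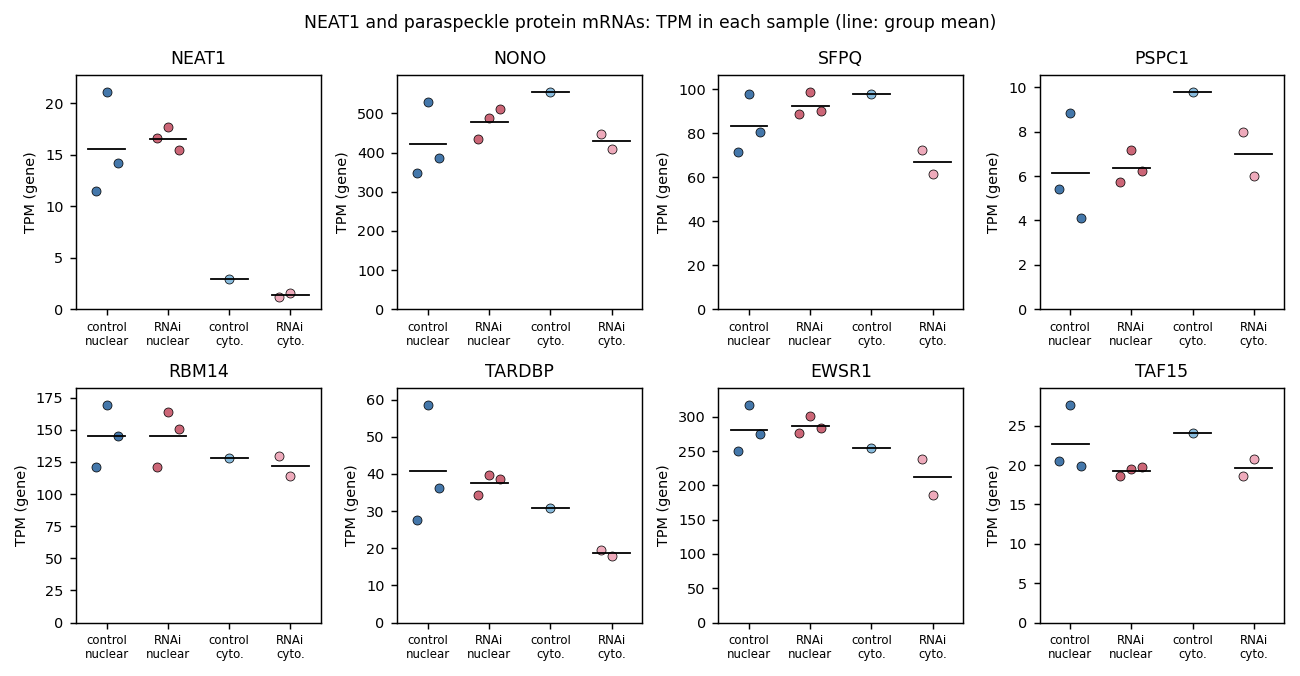
Gene TPM (linear axis from 0, a separate scale for each gene) of NEAT1 and the 7 protein mRNAs in each of the 9 samples, with 1 point per sample and a line at the group mean. NEAT1 alone shows nuclear points (11.4 to 21.1 TPM) far above cytoplasmic points (1.22 to 2.98 TPM), and control nuclear sample 2 is the highest of its group in every panel.

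In the cytoplasm no member was called after RNAi, 0 of 8, against 24.6% of all genes. With edgeR's quasi-likelihood test, SFPQ alone had an unadjusted p under 0.05, and DESeq2's Wald test also called 0. TARDBP had the second smallest p, with 69.0 CPM in the control and 48.1 and 53.8 CPM after RNAi (log2 difference -0.44 ± 0.20 SE, adjusted p = 0.155). The signs of NONO, RBM14, EWSR1 and TAF15, all positive by counts with TMM scaling (0.11 to 0.20), turned negative when only library size was used for scaling, which moved the median of all genes from 0.01 to -0.24. No direction in the cytoplasm is therefore given for these 4 genes.

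Comparing the fractions, 3 of the 8 members were called in control cells (37.5%, against 50.8% of all genes). NEAT1 was higher in the nucleus, while SFPQ (log2 difference -0.69 ± 0.10 SE, adjusted p = 0.000544) and PSPC1 (-0.80 ± 0.24 SE, adjusted p = 0.0174) were lower there. SFPQ stood at 221, 221 and 233 CPM in the control nuclei against 363 CPM in the control cytoplasm. In limma on log2(TPM + 1) neither was called (SFPQ -0.24, adjusted p = 0.422, and PSPC1 -0.65, adjusted p = 0.163). With the length offset SFPQ lost its call by the size of the difference (-0.34, adjusted p = 0.0428), while NONO gained one (-0.52, adjusted p = 0.0165). In RNAi cells 2 of the 8 were called (25%, against 57.8% of all genes), NEAT1 and PSPC1 (-0.52 ± 0.20 SE, adjusted p = 0.0469). PSPC1 lost its call without RNAi cytoplasmic sample 1 (-0.38, adjusted p = 0.248), without RNAi nuclear sample 2 or 3, without control nuclear sample 1 or 3, with the replicate number as a block (-0.41, adjusted p = 0.0943) and in limma on log2(TPM + 1) (-0.11, adjusted p = 0.763). TARDBP depended on the scale. Its RNAi nuclear to cytoplasmic difference was 0.15 ± 0.16 SE by counts (adjusted p = 0.441) 0.57 with the length offset (adjusted p = 0.0301) and 0.97 in limma on log2(TPM + 1) (adjusted p = 0.00912), so that it was called in both of the latter.

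The protein genes were not spread evenly over their entries in the 2 fractions. Many entries annotated with a retained intron or with no defined coding sequence stood higher in the nucleus. NONO-210, the most abundant of them, did not, and TARDBP-209 was at 2.23 TPM in the control cytoplasm and 2.30, 4.54 and 1.97 TPM in the control nuclei. Coding entries carried nearly all of the cytoplasmic RNA of EWSR1, SFPQ and RBM14. The filter required at least 10 counts in at least 3 samples, so an entry present in nuclei alone could pass and one present in cytoplasm alone could pass only with all 3 cytoplasmic samples. The counts of called entries are therefore a description and not support for a nuclear excess. Of the 45 member entries that passed, 14 were called higher and 4 lower in control nuclei (31.3% of all entries called, 20.4% higher and 10.8% lower), and 17 higher and 2 lower in RNAi nuclei (42.7% of all entries called, 28% higher and 14.7% lower). Of the 14 retained-intron entries listed for members 7 passed, and 6 of these were called higher in the nucleus in each condition. Over all genes, 51% of the 7607 retained-intron entries that passed were called higher in control nuclei and 65.1% in RNAi nuclei, so such calls were common in this class of entry.

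EWSR1 showed this most plainly. Its retained-intron entry EWSR1-215 (2630 nt) had 602, 945 and 503 estimated counts in the control nuclei, 929, 556 and 718 in the RNAi nuclei, 10.1 in the control cytoplasm, and 2.9 and 0 in the RNAi cytoplasm. EWSR1-216 (7285 nt) had 585, 682 and 540 counts in the control nuclei against 79.9 in the control cytoplasm and 47.9 and 8.7 in the RNAi cytoplasm. EWSR1-217 (3231 nt) had no count in the control cytoplasm and 89.2 to 155.8 in the control nuclei. These 3 entries passed the filter only through the nuclei, so no test between fractions is given for them. Together the retained-intron entries made up 11.7% ± 1.3 of EWSR1 TPM in the control nuclei and 13.0% ± 0.7 in the RNAi nuclei (SD, n = 3 each), and 0.54% and 0.26% in the control and RNAi cytoplasm.

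SFPQ had a similar division over entries with no defined coding sequence. SFPQ-208 (693 nt) was at 14.7, 16.5 and 16.2 TPM in the control nuclei, 20.2, 25.1 and 20.6 TPM in the RNAi nuclei, 2.43 TPM in the control cytoplasm, and 0.96 TPM in both RNAi cytoplasmic samples. The RNAi nuclei all lay above the control nuclei, as in 11.3% of all transcript entries tested, and the RNAi cytoplasm below the control cytoplasm. The cytoplasmic values of this entry rest on 21.0, 7.0 and 6.0 counts. It passed the filter only through the nuclei, so no test of its nuclear to cytoplasmic ratio is given. The coding entry SFPQ-201 went the other way between fractions, with 51.3, 60.9 and 58.2 TPM in the control nuclei and 94.7 TPM in the control cytoplasm (log2 difference by counts -0.84 ± 0.10 SE, adjusted p = 0.00305).

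NONO had 3 such entries with high nuclear counts. NONO-214 (3215 nt, no defined coding sequence) had 201, 238 and 227 counts in the control nuclei, 143, 226 and 162 in the RNAi nuclei and none in any cytoplasmic sample. The retained-intron entry NONO-211 (1430 nt) had 147, 181 and 112 counts in the control nuclei and 10.3 in the control cytoplasm, and NONO-209, also with a retained intron (846 nt), had 89.8, 90.3 and 66.3 against 1.9. All 3 passed the filter only through the nuclei, and no test between fractions is given. These entries were a small share of the gene, since retained-intron entries held 4.4% ± 0.3 of NONO TPM in control nuclei and 4.8% ± 0.7 in RNAi nuclei (SD, n = 3 each).

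TARDBP, whose protein regulates its own mRNA through the 3′ UTR, had the entry TARDBP-211 (870 nt, no defined coding sequence) at 6.49, 19.2 and 11.6 TPM in the control nuclei, 9.09, 10.7 and 10.3 TPM in the RNAi nuclei, 1.79 TPM in the control cytoplasm, and 2.00 and 1.88 TPM in the RNAi cytoplasm. All 6 nuclear samples were above all 3 cytoplasmic ones. The log2 difference by counts was 2.59 ± 0.55 SE in control cells (adjusted p = 0.0179) and 2.02 ± 0.40 SE in RNAi cells (adjusted p = 0.008). Its coding entry TARDBP-201 was at 12.4, 21.0 and 15.1 TPM in the control nuclei and 21.6 TPM in the control cytoplasm (-0.54 ± 0.19 SE by counts, adjusted p = 0.0783). The TAF15 retained-intron entry TAF15-208 had 8.3 to 16.7 counts in the control nuclei and 2.0 in the control cytoplasm, too few for a firm ratio. Other entries called between fractions in at least 1 condition were the coding entries EWSR1-206 and NONO-206, lower in the nucleus, and TARDBP-202, higher there. RBM14-208, SFPQ-203, SFPQ-205 and NONO-213, with no defined coding sequence, and TARDBP-210, annotated as a target of nonsense-mediated decay, were called higher in the nucleus with at most 8.0 counts in any cytoplasmic sample, so that these 5 also passed the filter only through the nuclei.

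**Figure D4:**
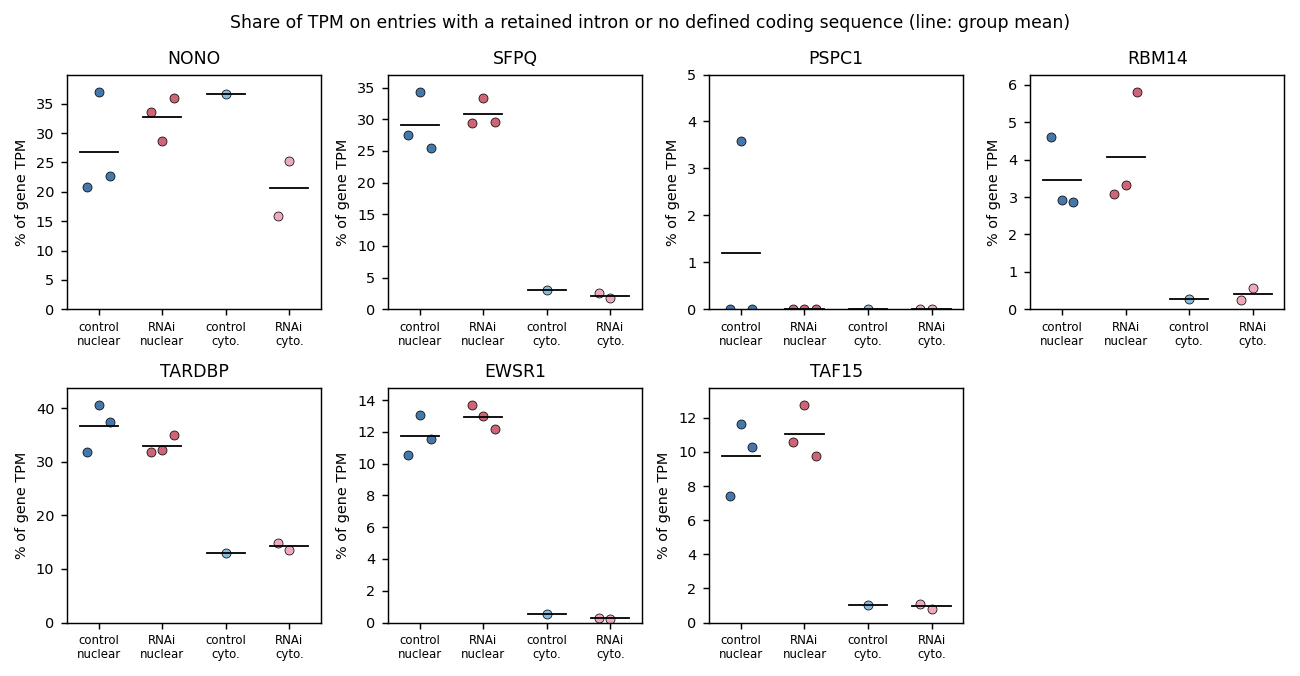
Share of each protein gene's TPM on entries annotated with a retained intron or no defined coding sequence, in percent, with 1 point per sample and a line at the group mean. SFPQ, RBM14, TARDBP, EWSR1 and TAF15 have higher shares in all 6 nuclear samples than in the 3 cytoplasmic ones, while NONO, whose share is mostly the 397 nt entry, does not, and PSPC1 is at 0 in 8 of 9 samples.

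RNAi did not produce a called change in any of these entries. In the nucleus the median log2 change of the 7 retained-intron entries of members that passed was 0.22, against 0.12 over all 7607 retained-intron entries and 0.001 over all entries. The smallest adjusted p among the 45 was 0.168 in the nucleus, for NEAT1-202, and 0 of 45 were called in the cytoplasm (2.6% of all entries called, with 4 at an unadjusted p under 0.05) and in the ratio (0.969% called, with 5 at an unadjusted p under 0.05) by edgeR. Limma on log2(TPM + 0.1) called 1 of them in the ratio. Over all genes, unadjusted p-values under 0.05 in edgeR were common too. In the cytoplasm they were found in 4435 of 26892 coding, 1057 of 7607 retained-intron and 419 of 3402 nonsense-mediated decay entries. With no defined coding sequence, it was 426 of 3566. In the ratio the numbers were 3719, 1037, 360 and 404 in the same order.

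A further 35 genes whose proteins have been placed in paraspeckles gave a wider view. None was called in the nucleus after RNAi by edgeR, 3 had an unadjusted p under 0.05, and the median change was -0.03. In the cytoplasm 9 of the 35 were called, 8 of them lower, which is 25.7% of the list against 24.6% of all genes. ZC3H6 (log2 difference -2.22 ± 0.66 SE) and PCED1A (1.23 ± 0.18 SE) had the largest values of those called, followed by HNRNPH1, an RNA-binding splicing regulator (-0.85 ± 0.16 SE), and SRSF10, another splicing regulator (-0.84 ± 0.21 SE), among the genes called. In the nuclear to cytoplasmic ratio 8 were called, 7 of them higher (22.9% against 18.2% of all genes), with FIGN at 1.27 ± 0.43 SE, HNRNPH1 at 0.88 ± 0.20 SE and HNRNPH3 at 0.83 ± 0.30 SE. PCED1A was the one called lower (-0.80 ± 0.21 SE). NUDT21, CPSF6 and CPSF7, subunits of the cleavage factor that acts at the end of the short NEAT1 form, are named here after their values were seen. NUDT21 was called lower in the cytoplasm (-0.75 ± 0.14 SE, adjusted p = 0.00639) and higher in the ratio (0.53 ± 0.18 SE, adjusted p = 0.0795), and changed by -0.22 ± 0.10 SE in the nucleus (adjusted p = 0.262). CPSF6 changed by 0.10 ± 0.10 SE in the nucleus (adjusted p = 0.625). CPSF7 was at 112, 100 and 108 TPM in the control nuclei and 132, 159 and 146 TPM in the RNAi nuclei. It was not called there, and 14% of all genes showed this order by TPM. By estimated counts, not scaled for depth, the CPSF7 groups overlapped. They were 4681, 4054 and 3335 in the control nuclei and 4412, 3717 and 4436 in the RNAi nuclei. In the cytoplasm CPSF7 was at 143 TPM in the control and at 182 and 123 TPM after RNAi. Between the fractions, 2 of the 35 were called higher and 13 lower in control nuclei, and 5 higher and 13 lower in RNAi nuclei. These are 42.9% and 51.4% of the list, against 50.8% and 57.8% of all genes, and the median differences of the list were -0.44 and -0.38 against 0.04 and 0.04 over all genes.

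Over the 9 samples, the genes whose log2 CPM followed NEAT1 most closely were CCNL2 (Pearson r 0.9978), DRC3 (0.9977), ENSG00000271998 (0.9975), CROCCP2 (0.9969) and ZBTB40 (0.9968). The points share libraries, and the nuclear to cytoplasmic difference fills most of their range, so these values are given as a description with no test. None of the 5 was called in the nucleus after RNAi or in the ratio. CCNL2, a cyclin tied to splicing factors, changed by 0.29 in the nucleus (adjusted p = 0.141) and by 0.41 in the ratio (adjusted p = 0.207). Among the members, EWSR1 had the highest correlation with NEAT1 over the same samples (0.76), and NONO the lowest (-0.92).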

How the data were processed

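Per the labels, RNA from nuclear and cytoplasmic fractions of HEK293 cells was sequenced after SENSE mRNA library preparation. The authors trimmed reads with cutadapt and estimated transcript abundance with Salmon against the Ensembl transcripts of hg19 (the versions of both tools are not given in the sources used here). They deposited, for each of 9 samples, an estimated count per transcript, not normalised between samples, and a TPM value, divided by effective length and scaled to the same total. Effective lengths were used for the length offset.

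Entries were matched without version number to GENCODE version 44 on GRCh37 (183122 of 215170, with 83.07% to 88.31% of counts), summed per gene and rounded. The main test was edgeR 4.0.16 (R 4.3.3), quasi-likelihood with TMM scaling, on 16181 genes (50857 entries) with at least 10 counts in at least 3 samples, 4 groups, no block and 5 residual degrees of freedom, with the control cytoplasmic spread taken from the other groups. Calls needed an adjusted p under 0.1 and a log2 change over 0.5, and p-values were adjusted over all features. The SE is the change divided by the square root of F. Between 0.19 and 0.303 CPM equal 3 counts, which is what a count of 0 allows by counting error alone. On simulated counts for the nuclear comparison (15710 genes, 200 changed by 2 on the log2 scale), 96.5% were found and 6.3% of calls were wrong. The simulation used a single size of change and the same spread for all genes, so it does not show how often smaller changes would be found. The share of the long form was tested with scipy 1.17.1. Alternatives used DESeq2 1.42.0, limma 3.58.1, other filters and scalings, a length offset, a replicate block and each replicate left out, and fits with the TAF15 copies added or unmatched entries kept were chosen after seeing the data. Sequences and coordinates came from GRCh37.

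Named were the 8 members, NEAT1 entries that passed the filter, entries with at least 10% of a gene's TPM or called in a contrast, WTAP, KIAA1429, the 5 genes most like NEAT1 and up to 4 called genes per contrast of the 35 further paraspeckle genes. One further gene of this rule is not reported here. The members and lists were chosen with earlier results of these data known. Of 5 markers of other cells, PTPRC, ALB, CD3E and DES were at or near 0 and COL1A1 was at 12.3 to 17.7 TPM.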

Additional observations from a re-analysis of the deposited data

Results flagged for a closer look

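The effect of RNAi on NEAT1 differed between the fractions by the interaction term in edgeR. Its log2 change was 0.52 (nucleus) and -0.32 (cytoplasm). These differ by 0.845 (adjusted p = 0.025). By CPM, all 3 RNAi nuclei lay above all 3 control nuclei, and both RNAi cytoplasmic samples (9.97 and 10.9 CPM) below the single control one (13.0 CPM). The nuclear order was not seen in the summed TPM of NEAT1. By TPM 14% of all genes showed it, and the share by CPM was not computed. The call was lost with the length offset in edgeR (0.88, adjusted p = 0.145) and in limma on log2(TPM + 1) (0.86, adjusted p = 0.273). No group was tested for stray samples, since none held more than 3.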

How the results depend on the processing

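With 1 control cytoplasmic sample, every contrast that includes it takes its spread from the other groups, and member counts of 1 to 3 move easily. The number of member genes called in the nucleus fell from 1 to 0 with no filter on low counts, the length offset or limma (either pseudocount), and was 0 to 1 with a replicate left out. In the cytoplasm it went from 0 to 2 with library size only (SFPQ and TARDBP), to 1 with at least 10 counts in every sample (TARDBP) and to 1 with the length offset (NEAT1). In the ratio it went from 1 to 2 with library size only (SFPQ added), and to 0 with the length offset or limma. Between fractions it fell from 3 to 1 with limma in control cells and from 2 to 1 in RNAi cells with library size only, with at least 10 counts in every sample, with unmatched entries kept and in the leave-one-out range of 1 to 2. Member entries called went from 0 to 1 in the ratio with limma on log2(TPM + 0.1), and spanned 0 to 2 in the cytoplasm and in the ratio when a replicate was left out, the 2 coming without RNAi cytoplasmic replicate 1. The share of the long form kept its direction in every setting (11.378 to 18.03 percentage points with a replicate left out, 4.93 by counts). The 29 counts that moved, 27 single calls lost, 10 gained and 48 reversals stand against 149 counts and 855 single values that kept direction and side.

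With the replicate block, 1, 0, 1, 3 and 1 member genes were called in the nucleus, the cytoplasm, the ratio and the fractions of control and RNAi cells, PSPC1 losing its call in the last (-0.41, adjusted p = 0.0943), and 13 and 15 member entries in place of 18 and 19 between fractions. The block changed no other member gene call, while over all genes the nuclear calls rose from 792 to 1035. The paired difference of the long form share was 14.4 points (exact sign-flip p = 0.25, the smallest possible). Same-numbered control and RNAi nuclei deviated together with r = 0.185, 0.11 and 0.042. With the same-numbered RNAi cytoplasm, r was 0.197 and 0.194 for control nuclei and 0.1 and 0.037 for RNAi nuclei. The main test took no pairs, and these values do not settle whether the numbers mark pairs. Between the control and RNAi nuclei, each of the 6 had its highest correlation with its own number except RNAi nuclear 3, a hint from the data and not the design.

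Signs of uncalled values turned as follows, and the cause was not tested beyond the shift of all genes, whose median ratio change moved from -0.05 to 0.23 with library size only, 0.21 with limma on log2(TPM + 1) and 0.30 on log2(TPM + 0.1). In the nucleus PSPC1 became 0.003 with the length offset, 0.101 and 0.124 in limma with the larger and the smaller pseudocount, and ran from -0.321 to 0.048 with a replicate left out, above 0 without control nuclear replicate 2 (main -0.161). TARDBP ran from -0.273 to 0.036, above 0 without the same replicate, RBM14 from -0.114 to 0.019, above 0 without RNAi nuclear replicate 1, and EWSR1 became 0.039 in limma with both pseudocounts. In the cytoplasm NONO became -0.056 with library size only, -0.111 with the length offset and -0.373 in limma, RBM14 -0.061 with library size only and -0.076 in limma, and in the order library size, length offset and the 2 limma fits EWSR1 became -0.107, -0.011, -0.273 and -0.275, and TAF15 -0.148, -0.03, -0.283 and -0.295. In the ratio NONO became 0.145, 0.237, 0.575 and 0.576 in the same order, and with library size only and the limma fits RBM14 became 0.033, 0.073 and 0.074, EWSR1 0.049, 0.312 and 0.313, and TAF15 0.078, 0.076 and 0.08. In control cells TARDBP between fractions became 0.269 with the length offset and 0.327 and 0.334 in limma, and RBM14 -0.051 with no filter. In RNAi cells NONO became 0.155 and 0.156 in limma, RBM14 0.09 with library size only and 0.239 and 0.241 in limma, and SFPQ 0.036 with the length offset and 0.464 and 0.469 in limma.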
